A study of Arabidopsis thaliana with 6 samples.

Results

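Cytosolic HSP70, HSP90 and HSP101 are ATP-driven chaperones that fold, hold and disaggregate proteins. The 8 Arabidopsis thaliana genes described here were chosen by gene ID, not by a measured value, with earlier results of these data known. They came from the 33331 genes of a table of RNA immunoprecipitation followed by sequencing (RIP-seq). Heat-inducible copies, whose transcripts accumulate on heat shock, were HSP70 (AT3G12580), HSP90.1 (AT5G52640) and HSP101 (AT1G74310). Constitutive copies, which are made without stress, were HSC70-1 (AT5G02500), HSC70-2 (AT5G02490), HSC70-3 (AT3G09440), HSP90.2 (AT5G56030) and HSP90.3 (AT5G56010). The 3 heat-inducible and 5 constitutive copies were compared in every library.

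RIP-seq recovers RNA that comes down with a tagged protein. That protein was AtGRP7, a glycine-rich RNA-binding protein under control of the circadian clock, fused to green fluorescent protein (GFP). Every plant carried AtGRP7::AtGRP7-GFP in grp7-1, so that the fusion was driven by the AtGRP7 promoter in the loss-of-function mutant, and the labels give no heat treatment. Plants grew for 16 days under 12 h of light and 12 h of darkness, were moved to continuous light (LL) and were fixed with formaldehyde after 36 h (LL36, subjective evening; 3 libraries) or 24 h (LL24, subjective morning; 3 libraries). Libraries came from aerial tissue and were made without poly(A) selection. Neither input nor control precipitate was used here, so the amount of a transcript and its binding by AtGRP7-GFP cannot be told apart. Nor can fewer cells of a type be told from less RNA per cell in these bulk samples.

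HSP70 proteins bind exposed hydrophobic stretches of clients in a cycle driven by J-domain partners, and HSP90 proteins act later, on client proteins that are near their native fold. HSP101 threads proteins out of aggregates together with HSP70 and is required for acquired thermotolerance in Arabidopsis. In unstressed leaves the constitutive copies carry the housekeeping load, while heat shock factors switch on the heat-inducible copies by binding heat shock elements.

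The ends of the 8 coding sequences are shown because they set the 2 cytosolic families apart from HSP101 and show how close the copies are. Cytosolic HSP70 and HSP90 proteins end in the residues EEVD, which dock co-chaperones with tetratricopeptide repeats such as HOP. Capitals mark the codons of EEVD, and the last 3 bases are the stop codon. Sequences were read from RefSeq, build TAIR10.1.
HSP70, chr3:3991487-3991516, minus strand: gctggcccaaagattGAAGAAGTTGATtaa
HSP90.1, chr5:21355118-21355147, plus strand: gaagagagcaagatgGAGGAAGTCGACtaa
HSP101, chr1:27936715-27936744, minus strand: gacgataatgaggaaatgatcgaggattaa
HSC70-1, chr5:554055-554084, minus strand: gctggacctaagatcGAGGAGGTCGACtaa
HSC70-2, chr5:550296-550325, minus strand: gctggtcccaagatcGAGGAAGTCGACtaa
HSC70-3, chr3:2903434-2903463, minus strand: gcaggtcccaagattGAGGAAGTCGACtaa
HSP90.2, chr5:22689404-22689433, plus strand: gaaggtagcaagatgGAGGAAGTCGACtaa
HSP90.3, chr5:22683882-22683911, plus strand: gaaggtagcaagatgGAGGAAGTTGACtaa

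HSP101 has no such end. Over the whole coding sequence HSP70 was 79.1% identical to HSC70-1, and HSC70-1 was 86.9% identical to its neighbour HSC70-2. HSP90.1 was 75.7% identical to HSP90.2 and 79.2% to HSP90.3, whereas HSP90.2 and HSP90.3 were 91.9% identical. Gaps counted as differences, and the longest HSP90.2 coding model has 2187 nt, against 2103 nt for HSP90.1 and 2100 nt for HSP90.3. Both values for HSP90.2 are lowered by these gaps. Reads were 100 nt long, and no stretch of that length in HSP70, HSP90.1, HSC70-1 or HSC70-2 occurred in another annotated gene. HSP90.2 shared 6.92% of its 100-nt stretches with other genes and HSP90.3 shared 10.8%, so reads from these stretches cannot be assigned by sequence. The longest run of bases in common between the coding sequences of HSP90.2 (chr5:22687890-22688127) and HSP90.3 (chr5:22682368-22682605) measured 238 nt and is longer than a read.
HSP90.2 and HSP90.3, shared run: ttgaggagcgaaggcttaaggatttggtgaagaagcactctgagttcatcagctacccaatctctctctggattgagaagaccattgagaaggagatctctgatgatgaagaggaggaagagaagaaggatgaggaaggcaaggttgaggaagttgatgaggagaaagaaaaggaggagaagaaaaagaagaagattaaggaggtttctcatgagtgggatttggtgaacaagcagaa

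HSC70-3 shared 12.7% of its stretches with AT3G09430, which overlaps its 3′ end and had only 0.156 to 0.327 scaled TPM at LL36 and 0.0781 to 0.280 scaled TPM at LL24. HSP101 shared 0.061% with AT1G74300, which overlaps it and ranged over 0.434 to 0.831 scaled TPM at LL36 and 0.672 to 1.57 scaled TPM at LL24. The sources used here do not give whether reads were assigned by strand.

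Heat shock elements are repeats of GAA and its complement, and they were searched as GAANNTTCNNGAA or TTCNNGAANNTTC on both strands of the window running 250 bases before to 50 after each annotated start. This 3-unit form occurred in 0.481% of 27443 protein-coding genes and in 2 of the 8 chaperone genes, the heat-inducible HSP70 and the constitutive HSC70-3. Both matches lie just downstream of the annotated start, at position 21 in HSP70 and 34 in HSC70-3, and are shown in capitals as the only such matches among the members.
HSP70, chr3:3993845-3993874, minus strand: ttactcgtGAACGTTCTCGAAagctctttg
HSC70-3, chr3:2905898-2905927, minus strand: aagccatcgaaccGAACATTCTCGAAcctt

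HSP101 held the shorter 2-unit form (GAANNTTC or TTCNNGAA), which was present in 19.3% of genes, at position 30. The window of HSP90.1 is not comparable, since its RefSeq model starts at the start codon.

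Values are TPM, transcripts per 1000000 transcripts corrected for length, which puts the signal of different genes on the same scale. Levels are those of precipitated RNA, so between genes too amount and binding are not separated. The deposited TPM of the listed genes summed to 95948 to 147114 at LL36 and 134828 to 165739 at LL24. They were therefore rescaled to a sum of 1000000 per library and divided by a trimmed-mean factor (scaled TPM). TPM holds no read counts, so the depth behind a value is unknown and its precision rests on the 3 libraries of each time point. Spearman correlations between libraries were 0.926 to 0.942 within a time point and 0.772 to 0.798 between time points. The summed level of 4 markers of green tissue was 23197 to 24972 scaled TPM at LL36 and 24614 to 32202 scaled TPM at LL24, and 3 of 4 root markers were at 0 in every library. Of the green-tissue markers, RCA, the activase of Rubisco, averaged 304 ± 13.8 scaled TPM at LL36 and 984 ± 147 at LL24, and RBCS1A, a small subunit of Rubisco, averaged 9053 ± 683 at LL36 and 12694 ± 1923 at LL24 (SD, n = 3 each; limma, adjusted p = 0.000107 and 0.0396). CAB1 and PSBP-1 were not called, and the part of green tissue in the chaperone values was not tested. AtGRP7 itself had 1580, 1939 and 1819 scaled TPM at LL36, against 21.0, 21.3 and 26.5 scaled TPM at LL24. The fitted difference reached 6.22 ± 0.13 log2 units (SE, n = 3 each; limma, adjusted p = 1.87e-06). The precipitated signal of the AtGRP7 transcript thus differed between the time points, and its part in the chaperone values was not tested.

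The level of the 8 transcripts spanned from HSC70-1, the major housekeeping HSC70 and 122nd of 22084 genes by mean level, to HSP101, ranked 16881. HSC70-1 averaged 234 scaled TPM over all 6 libraries, 20.5 times the next member. HSP90.2 followed at 11.4 and HSP90.3 at 10.3 scaled TPM, and these neighbours overlapped at both time points. HSC70-3 came below them at 8.26 scaled TPM, without overlap with HSP90.3 at either time point. HSP70 and HSC70-2 averaged 1.24 and 1.104 scaled TPM. HSP90.1 and HSP101 came last at 0.212 and 0.176 scaled TPM, overlapping at LL36 but not at LL24.

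**Figure D1:**
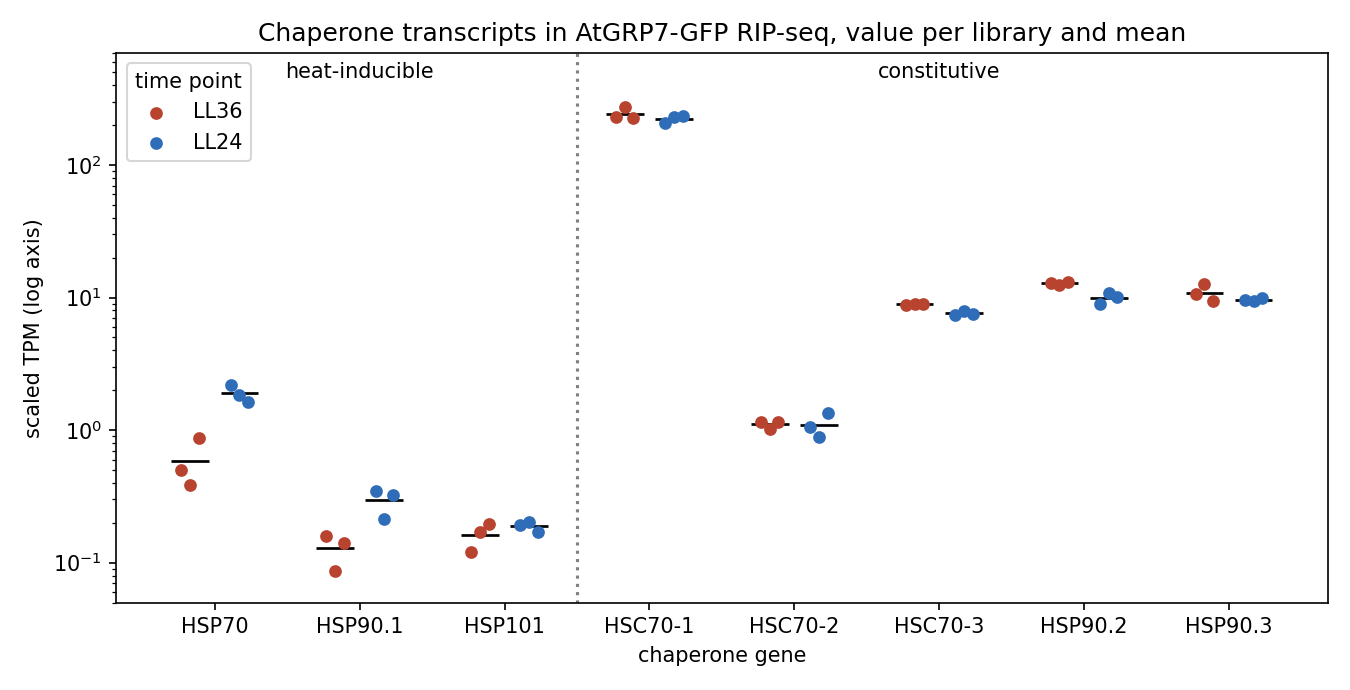
Scaled TPM of the 8 chaperone transcripts on a log axis. Points are single libraries (LL36 left, LL24 right of each pair, 3 libraries each) and bars are means. HSC70-1 lies between 206 and 275 scaled TPM, the 3 heat-inducible transcripts reach at most 2.19 scaled TPM, and HSP70 and HSP90.1 do not overlap between the time points.

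At LL36 the heat-inducible HSP70 and HSP90.1 had less RIP-seq signal, with mean levels at LL24 that were 3.22 and 2.29 times those at LL36 and no overlap of libraries, while the constitutive HSP90.2 and HSC70-3 had 1.28 and 1.18 times the LL24 level at LL36, again without overlap. Only HSP70 and HSP90.2 were called, in different fits. HSP101, HSC70-1, HSC70-2 and HSP90.3 overlapped between the time points. Libraries of LL36 and LL24 thus did not overlap for 4 of 8 members, where 28.0% of 22084 genes above 0 showed no overlap. Without the trimmed-mean factor HSP90.2 and HSC70-3 overlapped, and the count was 2 of 8 members, where 20.2% of genes showed no overlap.

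Calls came from limma on log2(scaled TPM + 1), with the Benjamini-Hochberg adjustment at 0.05 over all genes in a fit. Among the 3774 genes with a mean rescaled TPM of 5 or more, 36.2% were called (626 higher and 740 lower at LL36). With the TPM as deposited the split was 115 higher and 465 lower, and without the trimmed-mean factor it was 233 and 505. Of the 8 chaperone genes 4 passed this limit, all constitutive, and 1 was called, HSP90.2. The other 4 were read from the fit over all 22084 genes above 0 in any library, in which 9.89% were called and 1 of 8 members, HSP70. In a fit of the 9890 genes with a mean of 1 or more, 23.4% were called and 1 of 6 members, HSP70. It entered this fit only through its LL24 libraries, so that call adds no support. A share of 1 in 8 members is near the 9.89% called in the fit over all genes.

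Among the heat-inducible copies, HSP70 had 0.501, 0.386 and 0.875 scaled TPM at LL36, against 2.19, 1.85 and 1.63 scaled TPM at LL24. Each LL36 library was below each LL24 library, and LL36 replicate 3 was the highest of its time point. The means were 0.587 ± 0.256 at LL36 and 1.89 ± 0.278 at LL24 (SD, n = 3 each), with LL24 3.22 times LL36. The log2 difference of HSP70 was -0.87 ± 0.15 (SE, 95% interval -1.23 to -0.51, adjusted p = 0.0146 in limma over all genes). This scale understates changes of low values, and the difference was -1.59 with a pseudocount of 0.1. The mean deposited TPM at LL24 was 4.42 times that at LL36 without overlap, but every value was under the pseudocount of 1. HSP70 lost the call without LL24 replicate 2 (-0.90, adjusted p = 0.0552), without LL36 replicate 1 (-0.83, adjusted p = 0.0597), without LL36 replicate 2 (-0.77, adjusted p = 0.0503) and on the TPM as deposited (-0.27, adjusted p = 0.091), although it was lower at LL36 each time.

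HSP90.1, the heat-induced HSP90, had 0.159, 0.0869 and 0.140 scaled TPM at LL36, against 0.349, 0.213 and 0.323 scaled TPM at LL24. Again the libraries did not overlap. Its means were 0.129 ± 0.037 at LL36 and 0.295 ± 0.072 at LL24 (SD, n = 3 each), with LL24 2.29 times LL36. HSP90.1 did not pass the test (log2 difference -0.20 ± 0.06, 95% interval -0.34 to -0.06, adjusted p = 0.0945 in limma). With a pseudocount of 0.1 the difference was -0.79 (adjusted p = 0.128, range over the alternatives 0.0632 to 0.254), since a pseudocount of 1 exceeds these values.

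HSP101, the disaggregase, had 0.121, 0.171 and 0.196 scaled TPM at LL36, against 0.194, 0.203 and 0.171 scaled TPM at LL24. The time points overlapped, with LL36 replicate 1 the lowest library. The log2 difference of HSP101 was -0.03 (95% interval -0.14 to 0.07; limma, adjusted p = 0.712).

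The 3 heat-inducible copies together gave 0.782, 0.643 and 1.21 summed scaled TPM at LL36, against 2.73, 2.27 and 2.13 at LL24. Most of that sum was HSP70. These copies made up 0.321% ± 0.130 of the signal of all 8 genes at LL36 and 0.945% ± 0.186 at LL24 (SD, n = 3 each). The 5 constitutive copies gave 266, 309 and 260 summed scaled TPM at LL36, against 233, 258 and 262 at LL24, with overlap.

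**Figure D2:**
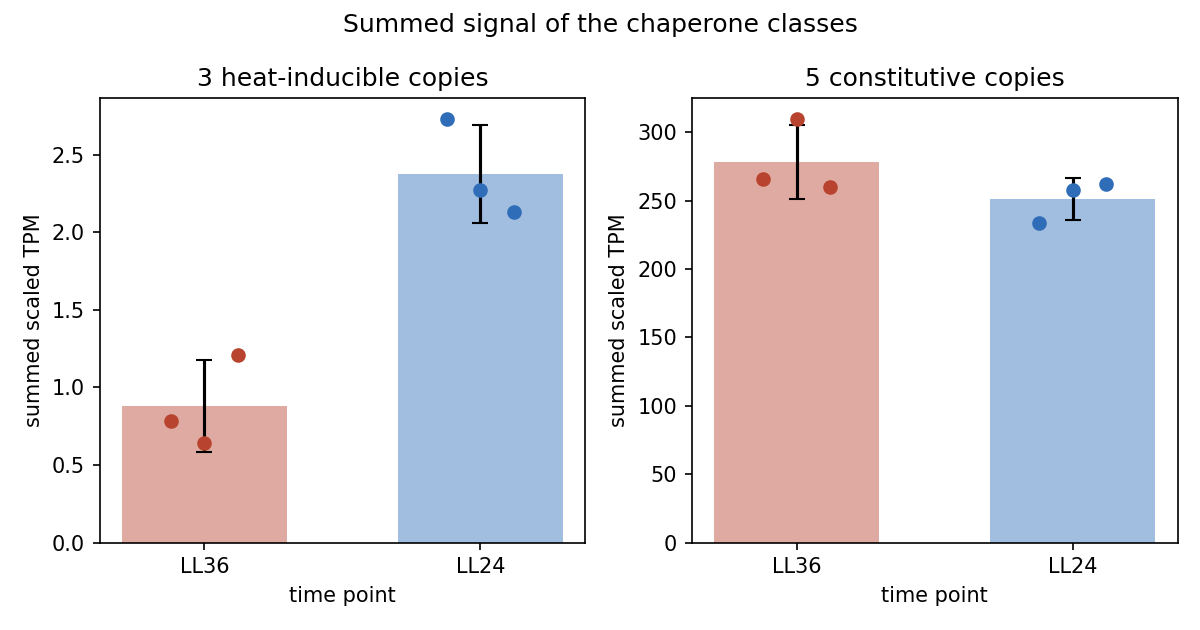
Summed scaled TPM of the 3 heat-inducible (left) and the 5 constitutive copies (right). Bars are means, error bars 1 SD, and points single libraries, with LL36 left of LL24 (3 libraries each). The heat-inducible sums reach 1.21 at LL36 and start at 2.13 at LL24, and the constitutive sums overlap.

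Among the constitutive copies, HSC70-1 had 232, 275 and 227 scaled TPM at LL36, against 206, 228 and 233 scaled TPM at LL24. The ranges overlapped and the transcript alone gave 87.5% ± 0.852 of the 8-gene signal at LL36 and 87.9% ± 0.466 at LL24 (SD, n = 3 each). HSC70-1 did not pass the test (log2 difference 0.13 ± 0.11, 95% interval -0.12 to 0.39, adjusted p = 0.37 in limma).

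HSC70-2, encoded next to HSC70-1 on chromosome 5, had 1.15, 1.02 and 1.14 scaled TPM at LL36, against 1.05, 0.893 and 1.35 scaled TPM at LL24. Its LL36 libraries lay inside the LL24 range. The log2 difference was 0.01 (95% interval -0.28 to 0.30; limma, adjusted p = 0.972), and its level was 0.458% ± 0.073 of that of HSC70-1 at LL36 and 0.494% ± 0.095 at LL24 (SD, n = 3 each).

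HSC70-3 had 8.82, 9.004 and 8.96 scaled TPM at LL36, against 7.44, 7.87 and 7.47 scaled TPM at LL24. The libraries did not overlap and differed little within a time point, but HSC70-3 was not called (log2 difference 0.21 ± 0.09, 95% interval -0.01 to 0.43, adjusted p = 0.117 in limma). Without the trimmed-mean factor the libraries of HSC70-3 overlapped (7.24 to 9.64 rescaled TPM at LL36, 6.96 to 9.10 at LL24).

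HSP90.2, the constitutive HSP90 that RefSeq lists as HSP81-2, had 12.9, 12.3 and 13.2 scaled TPM at LL36, against 8.99, 10.9 and 10.2 scaled TPM at LL24. All 3 LL36 libraries were above the LL24 libraries, and the means were 12.8 ± 0.433 at LL36 and 10.0 ± 0.942 at LL24 (SD, n = 3 each). HSP90.2 was called higher at LL36 (log2 difference 0.33 ± 0.10, SE; 95% interval 0.09 to 0.57; limma, adjusted p = 0.0416). The call was lost in every fit without 1 of the 6 libraries (0.25 to 0.37, adjusted p = 0.0565 to 0.121), in the fits with more genes (adjusted p = 0.0609 and 0.0933), without the trimmed-mean factor (0.25, adjusted p = 0.525) and on the TPM as deposited (0.01, adjusted p = 0.991).

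HSP90.3, listed as HSP81-3, had 10.7, 12.6 and 9.49 scaled TPM at LL36, against 9.62, 9.48 and 9.84 scaled TPM at LL24. LL36 replicate 3 lay inside the LL24 range. HSP90.3 was not called (log2 difference 0.15 ± 0.12, 95% interval -0.13 to 0.43, adjusted p = 0.348 in limma), and the ratio of HSP90.2 over HSP90.3 overlapped between the time points (121%, 98.2% and 139% at LL36, against 93.5%, 114% and 103% at LL24).

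All 5 constitutive copies had positive log2 differences without a limit (median 0.15, against -0.02 over all 22084 genes), but with the TPM as deposited those of HSC70-1, HSC70-2, HSC70-3 and HSP90.3 were negative, where the median over the 3774 genes was -0.18, against 0.03 with scaling. The 3 heat-inducible copies had negative differences under every alternative tried (median -0.20).

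**Figure D3:**
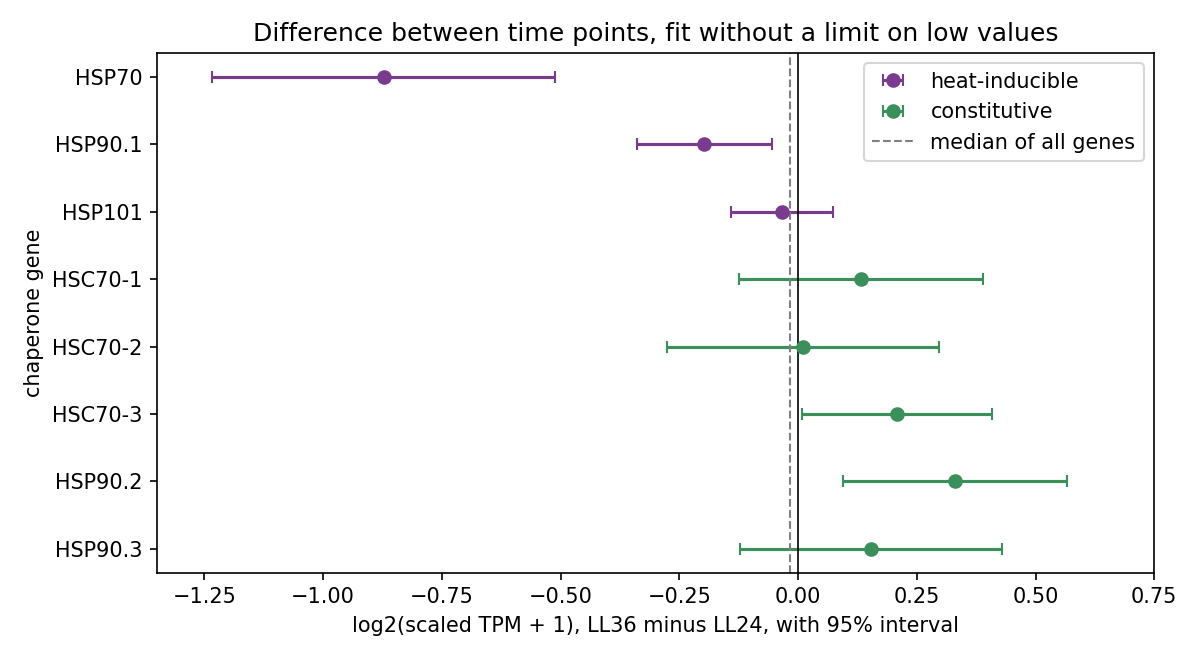
Difference of log2(scaled TPM + 1), LL36 minus LL24, for each chaperone gene in the fit over 22084 genes. Points are estimates from 3 libraries per time point and bars 95% intervals, with the dashed line at the median of all genes, -0.02. The interval of HSP70, -1.23 to -0.51, lies farthest from 0.

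Within a library, a ratio of 2 transcripts does not depend on the scaling. HSP70 amounted to 0.216%, 0.141% and 0.385% of HSC70-1 at LL36, against 1.06%, 0.812% and 0.700% at LL24. The highest LL36 library stayed below the lowest LL24 library. The mean log2 ratio was 1.90 lower at LL36, a 3.72-fold difference without a pseudocount (-1.90, and -0.98 with a pseudocount of 1; exact permutation test, two-sided, p = 0.1, adjusted over 2 ratios p = 0.1, n = 3 each). With 3 libraries against 3, 0.1 is the smallest p the test can give, so neither ratio could reach the threshold.

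HSP90.1 amounted to 1.23%, 0.705% and 1.06% of HSP90.2 at LL36, against 3.88%, 1.97% and 3.18% at LL24. The libraries again did not overlap, and the log2 ratio differed by -1.57 or 2.97-fold without a pseudocount and by -0.47 with a pseudocount of 1 (p = 0.1 in the same exact permutation test, 0.1 after adjustment, n = 3 each). Set against all constitutive copies of its family instead, HSP70 differed by -1.90 and HSP90.1 by -1.48. HSP101 amounted to 0.0522%, 0.0621% and 0.0862% of HSC70-1 at LL36, against 0.0941%, 0.0889% and 0.0734% at LL24, with overlap.

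HSP70 and HSC70-2 changed places in the order of levels. HSP70 stood at 43.5%, 37.6% and 76.4% of HSC70-2 at LL36, against 207%, 208% and 121% at LL24. HSP70 was thus the lower transcript in all 3 LL36 libraries and the higher in all 3 LL24 libraries, a pair picked after its values were seen.

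**Figure D4:**
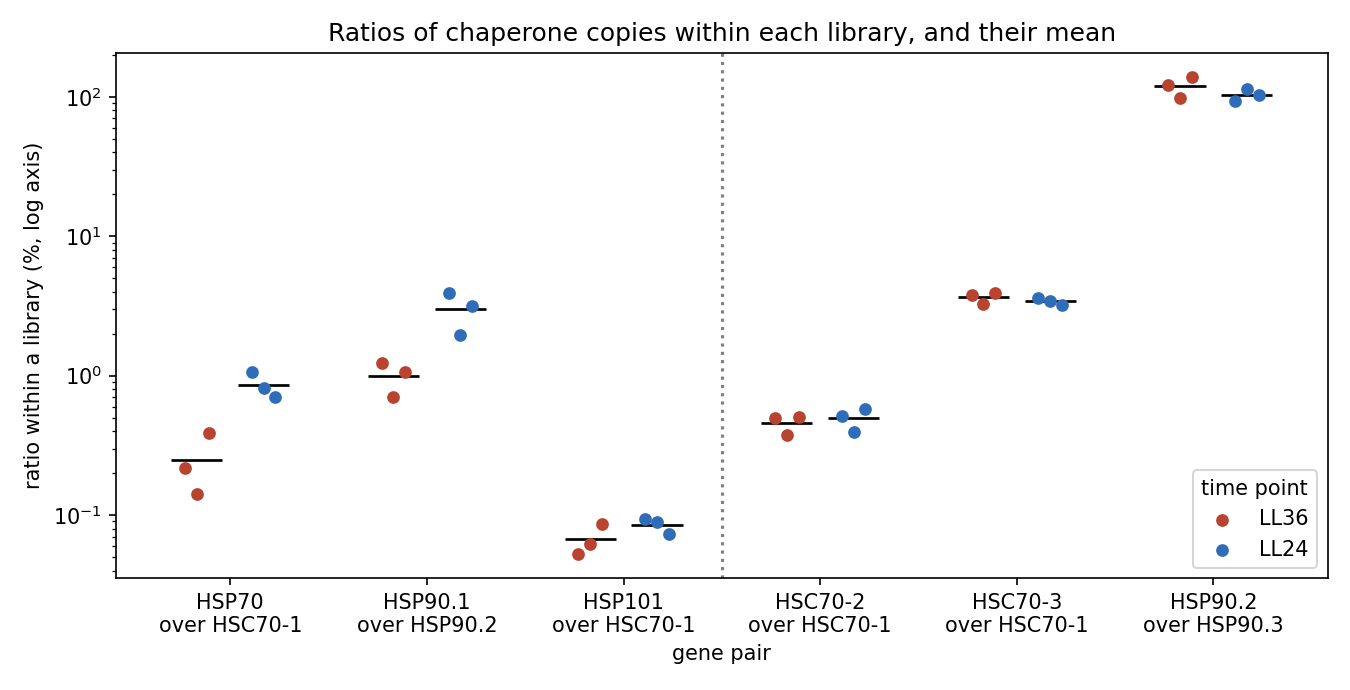
Ratio of 2 chaperone transcripts within each library, in percent on a log axis. Points are libraries (LL36 left, LL24 right, 3 each) and bars means. HSP70 over HSC70-1 reaches 0.385% at LL36 and starts at 0.700% at LL24, while the ratios among constitutive copies, right of the dotted line, overlap.

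HSP70B and HSP90.4, 2 further cytosolic proteins of these families, had libraries that overlapped between the time points. HSP70B (AT1G16030), a second heat-induced HSP70, had 0.138, 0.200 and 0.159 scaled TPM at LL36, against 0.184, 0.0304 and 0.247 scaled TPM at LL24, and the LL24 libraries enclosed those of LL36. HSP90.4 (AT5G56000) had 0.850, 0.967 and 0.898 scaled TPM at LL36, against 1.08, 0.833 and 0.997 scaled TPM at LL24. Neither was called in the fit over all genes (log2 differences 0.02 and -0.05, adjusted p = 0.907 and 0.833 in limma).

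Of 11 further HSP70 proteins of the cytosol, endoplasmic reticulum, chloroplast and mitochondria, HSP70B included, 3 passed the limit of 5. None was called in limma, where 36.2% of 3774 genes were (2 at an unadjusted p under 0.05, against 1764 of the 3774 genes). Without that limit none was called either, where 9.89% of all genes were (again 2 unadjusted, a count with no share over all genes beside it). Among 6 further HSP90 and ClpB proteins, HSP90.4 included, 1 passed and was not called (0 at an unadjusted p under 0.05 in limma), whereas without a limit 1 was called higher and 1 lower, where 9.89% of all genes were called. CR88 (AT2G04030), the chloroplast HSP90, averaged 6.12 ± 0.422 scaled TPM at LL36 and 3.72 ± 0.392 at LL24 (SD, n = 3 each; limma, adjusted p = 0.0167). CLPB3 (AT5G15450), the chloroplast relative of HSP101, averaged 1.03 ± 0.144 scaled TPM at LL36 and 3.56 ± 0.105 at LL24 (SD, n = 3 each), and its log2 difference was -1.17 ± 0.10 (SE; limma, adjusted p = 0.000964).

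Of 15 co-chaperones, among them HOP, J-domain and SGT1 proteins, 4 passed the limit of 5. None was called in limma, where 36.2% of 3774 genes were (0 at an unadjusted p under 0.05, against 1764 of the 3774 genes). Without a limit 1 of the 15 was called, against 9.89% of all genes, namely AT3G12050, which resembles the HSP90 activator Aha1 known from yeast. It averaged 4.85 ± 0.322 scaled TPM at LL36 and 3.38 ± 0.267 at LL24 (SD, n = 3 each; limma, adjusted p = 0.0487). The median log2 difference of the 15 was -0.01, against -0.02 over all genes.

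Genes of the heat response that act beside these chaperones had low levels. Of the 11 heat shock factors listed, none passed the limit of 5. The 10 above 0 gave no call in the limma fit over all genes without that limit (1 at an unadjusted p under 0.05; median log2 difference -0.05, positive in 3 of 10). HSFA3 (0.465 ± 0.121 at LL36, 0.138 ± 0.128 at LL24; limma, adjusted p = 0.0797) was higher at LL36 without overlap (SD, n = 3 each). So was HSF3 (0.376 ± 0.030 at LL36, 0.253 ± 0.090 at LL24; limma, adjusted p = 0.323). The 12 small heat shock proteins had mean levels of 0.0154 to 2.14 scaled TPM and none was called (0 at an unadjusted p under 0.05; median -0.10, positive in 4 of 12). Of 5 other heat-response genes, 4 were above 0 and none was called (3 at an unadjusted p under 0.05; median -0.42, positive in 1 of 4). The positive value was that of DREB2A, a transcription factor of the drought and heat response that was singled out after its values were seen. DREB2A had 1.03 ± 0.948 scaled TPM at LL36 and 0.109 ± 0.066 at LL24 without overlap (SD, n = 3 each, adjusted p = 0.159 in limma). HSA32 (0.130 ± 0.058 at LL36, 1.55 ± 1.29 at LL24) and MBF1C (2.85 ± 0.597 at LL36, 4.73 ± 1.14 at LL24) were lower at LL36, also without overlap. GolS1 was lower at LL36 with overlap. Libraries did not overlap for 28.0% of 22084 genes above 0. In the fit without a limit 9.89% of all genes were called. The counts at an unadjusted p in this paragraph have no share over all genes beside them and were not read as results.

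The genes most like HSP70 over the 6 libraries, among 3770 tested genes, were RD22 (AT5G25610), AT2G41090 and EDA3 (AT2G34860), with Pearson correlations of log2 values of 0.994, 0.993 and 0.993. RD22, a dehydration-responsive gene, averaged 9.77 scaled TPM at LL36 and 21.4 at LL24. In all, 454 genes correlated with HSP70 above 0.9, and these correlations share the difference between time points. HSC70-1 correlated above 0.9 with 36 genes, led by AT1G53400 (0.985), AT2G10940 (0.982) and PSRP3/1 (AT1G68590, a plastid ribosomal protein; 0.981).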

How the data were processed

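AtGRP7-GFP RIP-seq was measured in 3 LL36 and 3 LL24 libraries, with groups and replicate numbers taken from sample titles. The authors trimmed reads, aligned them with STAR 2.5.2a to the AtRTD transcripts (TAIR10), estimated abundances with Salmon 0.8.2, summed them per gene and left out rRNA and organelle genes. The deposited unit was TPM, and the listed genes summed to 9.60% to 16.6% of 1000000. Of the columns, 6 matched no sample and were not used. Listed TPM were rescaled to 1000000 and divided by an unweighted trimmed-mean factor (30% of log ratios and 5% of abundances trimmed) over the 3774 genes with a mean rescaled TPM of 5 or more. Factors were 1.09, 1.03 and 0.808 at LL36 and 1.22, 0.885 and 1.02 at LL24. The limma package (3.58.1, R 4.3.3) was run on log2(scaled TPM + 1) with lmFit and eBayes with a trend, two-sided, with Benjamini-Hochberg adjustment at 0.05, and every adjusted p of a gene comes from limma. The fit was tried on simulated data, only for genes with a mean rescaled TPM of 5 or more. In these data a smaller share of genes was changed than was called here. The fits over more genes were not simulated. Within-library ratios were compared with exact permutation tests on unscaled values.

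Members without a mean of 5 were read from the fit of all genes above 0. Named were the 8 genes, HSP70B, HSP90.4 and AtGRP7, up to 3 called genes in each direction per list, and the 3 genes most like HSP70 and HSC70-1. DREB2A, HSA32, MBF1C, GolS1, HSFA3 and HSF3 were named outside this rule, after their values were seen. The 8 genes and all lists were chosen with earlier results of these data known. Alternatives changed the scaling, the limit, the pseudocount (0.1 or 5), the trend, a replicate block and the libraries included. Of 33331 gene IDs, 32811 matched TAIR10.1. Sample titles only number the replicates. The authors call them biological and bulked several plants for each sample, so p-values measure the spread between these pooled samples.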

Additional observations from a re-analysis of the deposited data

How the results depend on the processing

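The 1366 genes called at a mean rescaled TPM of 5 became 738 without the trimmed-mean factor, 580 with the TPM as deposited, 353 (of 789) where the limit of 5 was set on the deposited values, 2319 (of 9890) with a mean of 1 or more and 2185 (of 22084) without a limit. The larger tables test more genes, and the cause of the other shifts was not tested. Leaving out each library in turn gave 988 to 1194 calls. Correlations of the deviations of same-numbered libraries were -0.042, -0.042 and -0.103, so the numbers were not treated as pairs. A replicate block gave 1057 calls and took the call from HSP70 (adjusted p = 0.0618 in limma) and HSP90.2 (adjusted p = 0.0993). Over all alternatives the adjusted p of HSP90.2 ranged from 0.0229 to 0.991. That of HSP70 ranged from 0.0128 to 0.091, leaving out the fit with a mean of 1 or more, which HSP70 entered only through LL24. Direction turned with the TPM as deposited for HSC70-1 (-0.21), HSC70-3 (-0.052), HSP90.3 (-0.086) and HSC70-2 (-0.045). For HSC70-2, whose difference was near 0, it also turned without the trimmed-mean factor (-0.041) and without LL24 replicate 1, LL24 replicate 2, LL36 replicate 1 or LL36 replicate 3. Without each of the 6 libraries in turn its values ranged between -0.068 and 0.081. HSP70, HSP90.1 and HSP101 stayed negative and HSP90.2 positive in every alternative. Ratios without each library were -2.28 to -1.55 for HSP70 over HSC70-1 and -1.85 to -1.34 for HSP90.1 over HSP90.2, and with a pseudocount of 1 they were -0.98 and -0.47 (exact permutation p = 0.1 to 0.25 over all alternatives of both, n = 3 each). Among the members, levels under 1 scaled TPM were those of HSP90.1 and HSP101 in every library and of HSP70 in all 3 LL36 libraries. HSC70-2 was also under 1 in LL24 replicate 2 (0.893). Such levels rest on an unknown number of reads, which limits what their differences can show. Deposited values were smaller still, and HSP70 had 0.361, 0.224 and 0.275 TPM at LL24 before rescaling.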
